A study of Homo sapiens with 12 samples.

Results

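The comparison described here set COLO858 cells kept for 24 h in 0.2 μM vemurafenib against COLO858 cells given DMSO, the solvent. COLO858 is a human melanoma cell line with mutant BRAF, and vemurafenib is an inhibitor of that mutant RAF kinase. Of the 12 libraries of the series 4 enter this comparison, 2 for each condition. The 2 libraries taken after 48 h in the same dose of drug were used for the estimate of the spread and to ask which changes differed at the later time. The drug was the one difference named between the groups, and both groups came from the same parental line, in 10-cm plates treated a day after seeding. No time is labelled for the DMSO plates, so the age of the control culture at harvest is not known. A single line stands for the tumour, and the sources state that cells were seeded in 2 replicates without saying whether these were separate cultures grown at different times. The p-values therefore measure the spread between these libraries, which may be technical.

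RNA was measured as FPKM, a measure that divides the fragments of a gene by its transcript length in kilobases and by the size of the library. Changes are differences of log2(FPKM + 1) at 24 h minus DMSO, given ± SE, and they understate the change of genes near 1 FPKM. Of 23273 genes in the table, 12213 were tested. These had a mean of at least 1 FPKM in either group and were not small RNA genes of the MIR, SNORD, SNORA and SCARNA classes, of which 1592 were left out. A gene was said to have risen or fallen when its two-sided limma p-value, adjusted by Benjamini-Hochberg over all genes tested, was under 0.01. Genes at or above 1 FPKM, small RNA genes left out, numbered 11551 to 11761 in the 4 libraries. The small RNA genes took 20.3 and 24.0% of the FPKM sum in the replicate 1 libraries, and 35.8 and 50.3% in the replicate 2 libraries. The sum of all other genes was 601612 and 578005 under DMSO and 519282 and 503699 at 24 h. Read depth is unknown, as FPKM holds no counts.

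In melanocytes and melanomas with mutant BRAF, RAF activates MEK and MEK activates ERK. ERK induces early transcription factors and cyclin D, and it also induces its own brakes, the DUSP phosphatases and the Sprouty proteins. Cyclin D with its kinase releases E2F factors from RB, and E2F then drives the genes of DNA replication. The genes of mitosis follow later in the cycle. Pigment cells stem from the neural crest, and MITF is their main lineage factor, controlling melanin enzymes such as DCT and TYRP1.

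After 24 h in drug 761 genes had risen, which was 6.23% of the genes tested, and 978 had fallen, which was 8.01%. With the replicate number added to the model as a block, 3781 genes rose, or 31.0%, and 3439 fell, or 28.2%. Each of the 1739 genes called without the block was also called with it. Of all genes tested, 34.5% had both 24 h libraries above both DMSO libraries and 29.7% had both below, so a lack of overlap between 2 and 2 libraries was common. Rises of at least 1 on the log2 scale were seen for 603 of the genes that passed, and falls of that size for 845. Falls also made up more of the larger changes, with 269 falls and 106 rises of at least 2. The counts rested on each library. Without the first DMSO library 316 genes rose and 631 fell, and without the second 363 rose and 581 fell. Without the first 24 h library 286 rose and 460 fell, and without the second 242 rose and 456 fell. In each of these fits a single library was assumed to vary like the other groups. The median change of all genes tested was 0.06, and lists of genes are set beside it below. Counts of rises and falls in a list are to be read beside the shares of all genes. These are 6.23% and 8.01% without the block, and 31.0% and 28.2% with it.

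**Figure D1:**
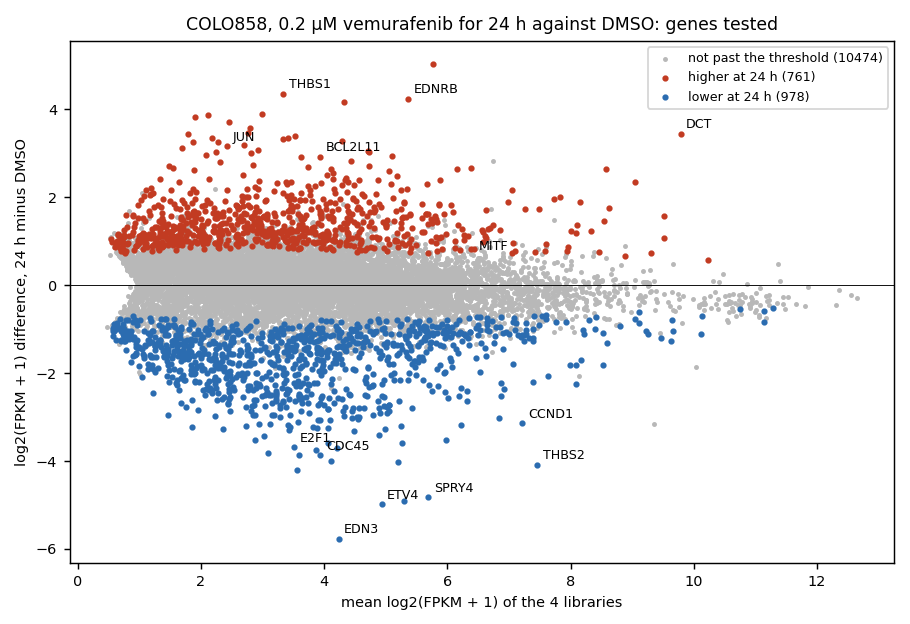
Each point is 1 of the 12213 genes tested, with its mean log2(FPKM + 1) over the 4 libraries on the x axis and its log2(FPKM + 1) difference, 24 h minus DMSO, on the y axis. Red points rose (761) and blue points fell (978) at an adjusted p under 0.01. EDN3 lies lowest, at -5.77, and THBS1 and EDNRB are among the labelled genes that rose.

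The replicates were not free of a shared pattern. How far each library lay from its group mean was compared between DMSO and 24 h at equal replicate number, and the correlation was 0.773 over the genes tested. It is a description over genes, which are not independent. Replicate 2 minus replicate 1 had an SD over genes of 0.38 under DMSO and 0.37 at 24 h on the log2 scale. The sources do not say what a shared number stands for. Its difference in small RNA share is given above, and the part of that share in the pattern was not tested. A gene whose replicates differed in the same way in both groups gains from the block, as MITF shows below.

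**Figure D2:**
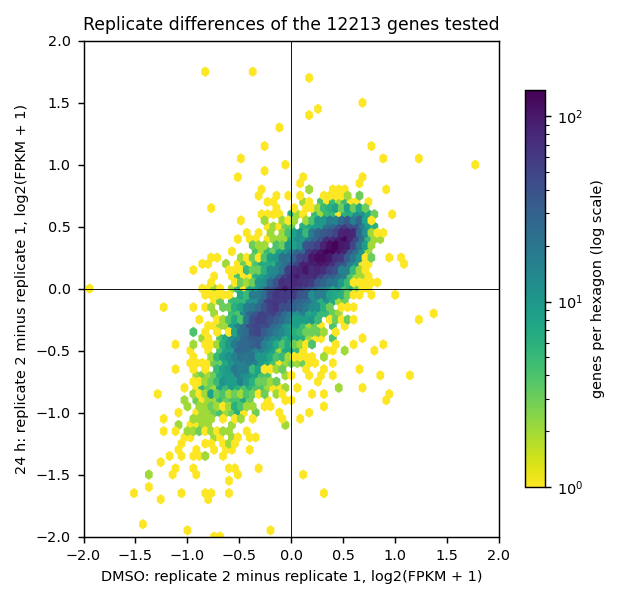
The x axis is replicate 2 minus replicate 1 in log2(FPKM + 1) under DMSO and the y axis the same difference at 24 h, with colour for the number of genes in a hexagon (log scale). Genes lie along the diagonal, with a correlation of deviations of 0.773, and 19 genes fall outside the plotted range of 2 in either direction.

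The labelled cell type was checked against 7 pigment cell markers, of which 6 could be tested. PMEL, a structural protein of the melanosome, stood at 65.9 and 63.3 FPKM under DMSO and 236.3 and 248.8 at 24 h. S100B and DCT, described below, were also high. MLANA, another common marker, stayed under the minimum with 0.438 and 0.425 FPKM under DMSO and 0.299 and 0.648 at 24 h. TYR, described below, was also near the minimum, so the markers were not all well expressed. The summed FPKM of the 6 blood cell markers was 13.1 and 16.7 under DMSO and 6.82 and 9.15 at 24 h, nearly all of it from CD68 and LYZ. The 4 endothelial markers summed to less than 1 FPKM in each library, and KRT10 was the one keratinocyte marker tested. Of the 6 fibroblast markers COL1A2 fell and COL3A1 rose, the former with an adjusted p of up to 0.0121 when 1 library was left out. The sum of all 6 was 9.29 and 12.1 FPKM under DMSO and 17.8 and 20.8 at 24 h. The part of other cells in these values was not tested. In bulk RNA, fewer cells of a type and less RNA per cell cannot be told apart.

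Transcripts that ERK controls fell. Of 18 tested genes of ERK output and feedback 12 fell, against 8.01% of all genes, and 14 fell with the block. Their median change was -2.01, and their summed FPKM dropped from 1740 and 1892 to 464.7 and 523.5. With 1 library left out at a time 11 fell in each case. The largest falls were those of ETV4 and SPRY4. ETV4, an ETS factor downstream of ERK, had 195.8 and 149.9 FPKM under DMSO and 4.86 and 4.06 at 24 h. SPRY4, a feedback inhibitor of receptor signalling to RAS, had 270.8 and 277.4 FPKM under DMSO and 8.58 and 8.92 at 24 h. Both genes had their DMSO libraries far above their 24 h libraries, with changes of -4.98 ± 0.20 and -4.82 ± 0.14 and limma adjusted p-values of 0.000165 and 6.16e-05.

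Cyclin D1, encoded by CCND1, opens the G1 phase together with CDK4 or CDK6. Its transcript stood at 418.4 and 466.3 FPKM under DMSO and 48.1 and 50.4 at 24 h, a change of -3.14 ± 0.13 with no overlap (limma adjusted p = 0.000166). FOSL1, an AP-1 subunit that needs sustained ERK activity, had 69.8 and 59.9 FPKM under DMSO and 7.75 and 6.64 at 24 h, and EGR1, an immediate early factor, had 15.7 and 14.4 FPKM under DMSO and 0.744 and 0.584 at 24 h. The groups were apart for both, at -3.00 ± 0.18 and -3.27 ± 0.15 (limma adjusted p = 0.000216 and 0.000181). DUSP6, the phosphatase that switches ERK itself off, fell less, from 109.7 and 123.8 to 45.1 and 38.7 FPKM, by 1.46 ± 0.15 on the log2 scale (limma adjusted p = 0.00108). SPRY2, the relative of SPRY4, fell by 1.90 ± 0.16 (limma adjusted p = 0.000614). EPHA2, a receptor kinase on the same list, fell by 1.44 ± 0.26, and its call was lost when any 1 library was left out, with an adjusted p of up to 0.0424.

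Of 18 tested genes of the cascade from RAS to ERK 0 passed the threshold without the block. At an unadjusted limma p under 0.05, 6 were higher and 3 lower, and with the block 7 rose and 4 fell. Their median change was 0.11. BRAF, the gene of the drug's target, had 6.98 and 8.96 FPKM under DMSO and 11.7 and 13.5 at 24 h, with both 24 h libraries above both DMSO libraries and adjusted p-values of 0.0479 without and 0.000655 with the block.

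Among 18 further AP-1 and immediate early factors the changes went both ways, with 3 rises and 7 falls and a median of -0.11. Without 1 library the rises numbered 2 or 3 and the falls 1 to 6, the fewest falls without the second 24 h library. With the block 5 rose and 7 fell. JUN, the central AP-1 subunit, rose from 0.956 and 0.643 to 17.5 and 12.8 FPKM, a change of 3.16 ± 0.22 (limma adjusted p = 0.000331), and MAF, a related basic leucine zipper factor, rose by 2.05 ± 0.15 from under 0.2 FPKM. Both genes were near the floor in the control and clearly present in drug. ATF3, a stress-induced partner of JUN, rose by 1.54 ± 0.22, and its adjusted p reached 0.0221 when 1 library was left out. Falls were seen for NR4A1, an immediate early nuclear receptor, at -1.76 ± 0.20, for IER2 at -1.92 ± 0.34, for MAFF at -1.58 ± 0.22 and for BATF3 at -1.65 ± 0.19. Of these NR4A1 kept its call without any 1 library, and the other 3 reached 0.0367, 0.0185 and 0.0108. MYC, which drives growth and ribosome production, stood at 135.9 and 113.0 FPKM under DMSO and 66.5 and 57.9 at 24 h. Its change of -0.99 ± 0.16 passed with all libraries and lost the call whichever library was left out.

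**Figure D3:**
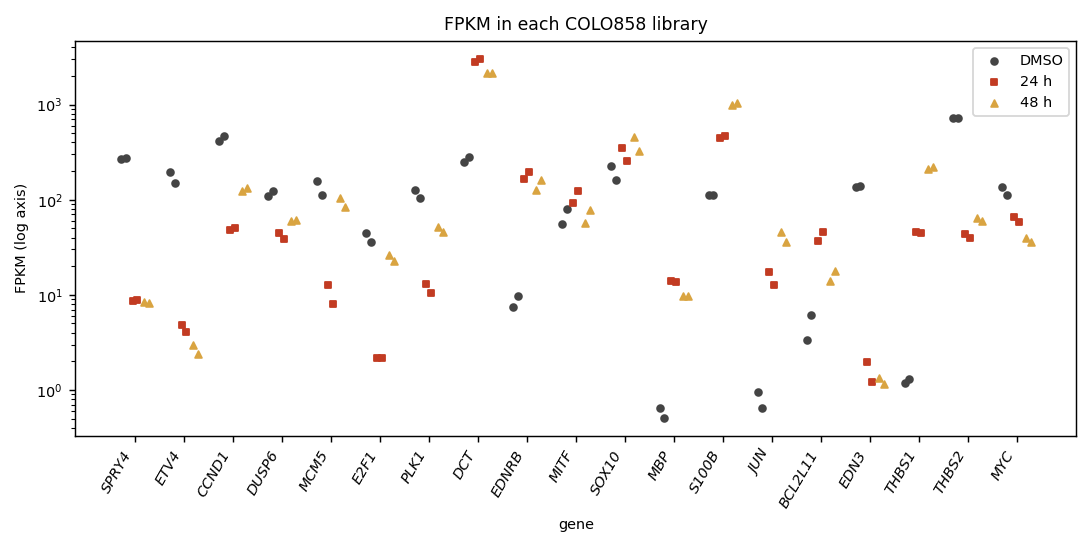
FPKM of 19 genes on a log axis, with 1 point per library, circles for DMSO, squares for 24 h and triangles for 48 h in 0.2 μM vemurafenib. SPRY4, ETV4 and EDN3 drop at 24 h and stay low, CCND1, MCM5, E2F1 and PLK1 lie between the other groups at 48 h, and MBP, DCT and EDNRB are high at both drug times.

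Of the 34 gene lists, those of mitosis and DNA replication had the largest shares of genes that fell. Of 47 tested genes of DNA replication 43 fell, with a median change of -2.48, and with the block 46 fell. Of 50 genes of mitosis 49 fell, with a median of -2.54, and all 50 fell with the block. Without 1 library at a time, 39 to 43 of the replication genes and 43 to 49 of the mitosis genes still fell. CDC25B, an activator of CDK1, was the mitosis gene that did not pass, with a change of -1.08 ± 0.22 and an adjusted p of 0.0127. It is named for that reason, after its values were seen. The summed FPKM of the replication list went from 2327 and 2385 under DMSO to 346.4 and 362.9 at 24 h. For the mitosis list the sums were 2189 and 2522 under DMSO, and 337.1 and 371.2 at 24 h.

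The replication genes with the largest falls act at the origin of replication. CDC6 loads the MCM helicase and had 40.0 and 50.5 FPKM under DMSO and 1.97 and 2.33 at 24 h, whereas CDC45 joins the helicase when it fires and had 59.6 and 56.1 FPKM under DMSO and 2.97 and 3.06 at 24 h. GINS2, a subunit of the complex that completes the helicase, had 50.4 and 54.5 FPKM under DMSO and 2.36 and 3.72 at 24 h. All 3 were at about the same low level in drug, with changes of -3.87 ± 0.21, -3.87 ± 0.15 and -3.74 ± 0.21 (limma adjusted p = 0.00019, 0.000118 and 0.000204). MCM5 of the helicase itself fell from 156.8 and 112.0 to 12.6 and 7.95 FPKM, and MCM2, another of its subunits, fell by 2.95 ± 0.18 on the log2 scale.

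AURKB, the kinase of the chromosomal passenger complex, led the mitosis genes with 70.7 and 61.1 FPKM under DMSO and 3.43 and 4.97 at 24 h (-3.70 ± 0.20, limma adjusted p = 0.00019). UBE2C, the ubiquitin carrier of the anaphase-promoting complex, followed with 202.0 and 220.0 FPKM under DMSO and 20.3 and 15.2 at 24 h and a change of -3.51 ± 0.17. PLK1, the kinase of mitotic entry, had 125.7 and 104.2 FPKM under DMSO and 13.1 and 10.3 at 24 h, and KIF2C, a kinesin that takes apart microtubules, had 34.6 and 34 FPKM under DMSO and 3.03 and 3.12 at 24 h. None of these 4 genes had overlapping groups. The proliferation antigen MKI67 fell by 2.35 ± 0.19 and cyclin B1, CCNB1, by 2.74 ± 0.24 on the log2 scale (limma adjusted p = 0.00044 and 0.000617).

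**Figure D4:**
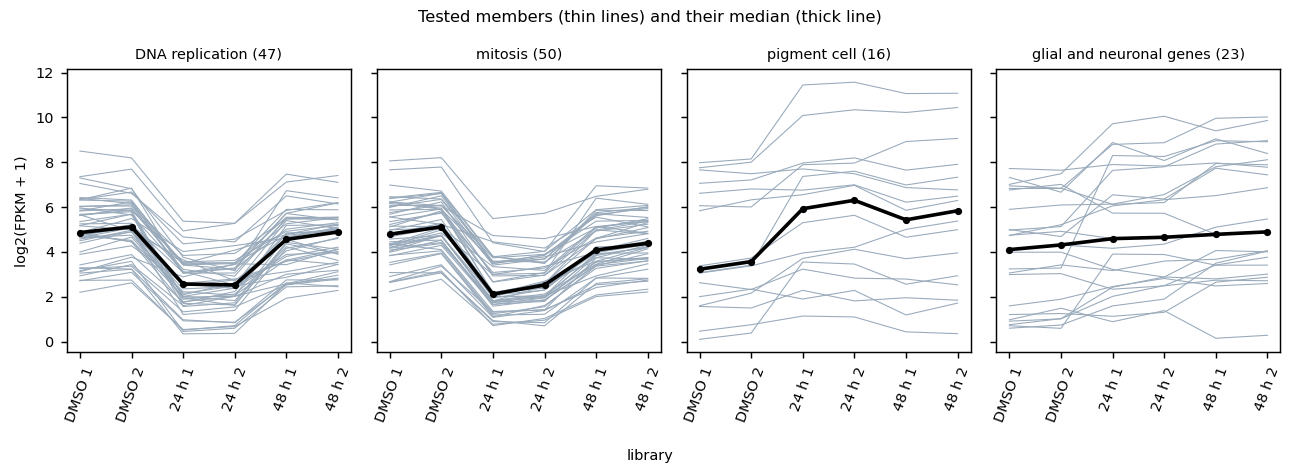
Log2(FPKM + 1) of the tested members of 4 gene lists in each of the 6 COLO858 libraries, with thin lines for genes and the thick line for the median of the list. The 47 replication and 50 mitosis genes drop at 24 h and are part of the way back at 48 h, whereas the upper pigment cell and glial genes rise at 24 h and stay up.

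The promoters of these genes were read for short motifs, because the cell cycle genes moved together. Promoters of 250 bases before and 50 bases after the start were taken from RefSeq on GRCh38.p14 and were found for 42 of the 49 mitosis genes and 38 of the 43 replication genes that fell. Among the mitosis promoters 78.6% held the letters of the cell cycle homology region, TTTGAA or TTTAAA, on either strand, against 15.2% of the promoters of 9644 tested genes and 24.0% of all 35116 promoters. CCAAT, the site of NF-Y, was in 76.2% of them and in 60.5% of the replication promoters, against 36.8% of the tested genes and 34.6% of all. Among the replication promoters 52.6% held an E2F site, written as TTTCCCGC, TTTGGCGC or TTTCGCGC, against 4.67% of the tested genes and 2.74% of all promoters. That site was in 9.52% of the mitosis promoters, and the homology region in 13.2% of the replication promoters. These shares are a description of letters, with no test between the lists. The 120 bases before the start of 4 genes follow, chosen because they hold the motifs. E2F1 is of the G1 control list and was not counted in the shares above. Capitals mark CCAAT or the homology region in PLK1 and CCNB2, and the E2F site in E2F1 and GINS2. The printed bases lie on the plus strand at chr16:23678769-23678888 for PLK1 and chr15:59105026-59105145 for CCNB2. Those on the minus strand lie at chr20:33686386-33686505 for E2F1 and chr16:85688955-85689074 for GINS2.
PLK1: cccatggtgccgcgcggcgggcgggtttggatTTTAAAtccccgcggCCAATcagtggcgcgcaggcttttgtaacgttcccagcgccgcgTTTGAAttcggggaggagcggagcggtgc
CCNB2: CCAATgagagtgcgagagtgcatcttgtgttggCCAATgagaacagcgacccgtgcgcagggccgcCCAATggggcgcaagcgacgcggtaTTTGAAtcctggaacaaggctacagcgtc
E2F1: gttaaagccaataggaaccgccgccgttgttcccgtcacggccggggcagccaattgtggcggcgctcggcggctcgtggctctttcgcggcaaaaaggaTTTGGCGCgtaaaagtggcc
GINS2: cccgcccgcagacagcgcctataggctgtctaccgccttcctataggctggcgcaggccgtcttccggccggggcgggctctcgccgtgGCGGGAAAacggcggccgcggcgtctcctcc
In PLK1 and CCNB2 the capitals closest to the start are the homology region, which begins 29 bases before the start in both promoters. The E2F site begins 20 bases before the start in E2F1 and 31 in GINS2.

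Upstream of these, 15 of 30 tested genes of G1 control fell, with a median of -1.06, and 24 fell with the block. Without 1 library 10 to 12 fell, the fewest without the second DMSO library or either 24 h library. E2F1 itself had 44.6 and 35.7 FPKM under DMSO and 2.17 and 2.19 at 24 h (-3.69 ± 0.18, limma adjusted p = 0.000183). CDC25A, the phosphatase that activates CDK2, had 19.5 and 19.1 FPKM under DMSO and 1.2 and 1.19 at 24 h, and CDKN2A, a locus for an inhibitor of CDK4 and CDK6, had 260.5 and 190.0 FPKM under DMSO and 31.6 and 17.8 at 24 h. All 3 fell by more than 3 on the log2 scale, at -3.21 ± 0.15 for CDC25A and -3.17 ± 0.30 for CDKN2A, although CDKN2A encodes an inhibitor and the other 2 promote the cycle. The CDK inhibitors CDKN1A and CDKN1B showed changes of 0.08 ± 0.13 and 0.23 ± 0.17, with adjusted p-values of 0.651 and 0.345. CDKN1A was at 110.8 and 102.1 FPKM under DMSO and 115.4 and 110.3 at 24 h, and the groups overlapped.

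Repair of breaks by homologous recombination shares its timing with replication. Of 30 tested genes of this process, of the Fanconi pathway and of mismatch repair, 22 fell, with a median of -1.52, and 29 fell with the block. Without 1 library 13 to 19 fell, the fewest without the first 24 h library. RAD54L, FANCI, BLM and EXO1 had the largest falls. BLM, a helicase, went from 10.6 and 15.2 to 0.974 and 1.34 FPKM and EXO1, a nuclease, from 7.7 and 10.3 to 0.561 and 0.991 FPKM. Both were near 1 FPKM in drug, with changes of -2.67 ± 0.23 and -2.49 ± 0.24 (limma adjusted p = 0.000586 and 0.000837). Of the 36 chromatin regulators tested, 9 fell and 2 rose, with a median of -0.08, and 15 fell and 11 rose with the block. Without 1 library 6 to 8 fell and 0 rose. The falls included HMGB2 at -2.41 ± 0.22, HELLS at -2.38 ± 0.25 and HMGA1 at -1.82 ± 0.17.

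Of 25 tested genes linked to growth arrest 14 rose, against 6.23% of all genes, and 1 fell, with a median change of 1.42. With the block 22 rose. Without 1 library 9 to 12 rose, the fewest without the second 24 h library. MXI1, an antagonist of MYC, had 11.8 and 17.6 FPKM under DMSO and 74.7 and 97 at 24 h, and CITED2, a coactivator-binding protein, had 6.38 and 7 FPKM under DMSO and 40.7 and 38.7 at 24 h. In both, each 24 h library was well above the DMSO libraries, at 2.48 ± 0.26 and 2.41 ± 0.15 (limma adjusted p = 0.00112 and 0.000225). GAS1, a growth arrest gene at the cell surface, rose by 2.35 ± 0.22, and SESN3, a FOXO-induced sestrin, by 2.14 ± 0.16. TXNIP, which binds thioredoxin and limits glucose uptake, had 17.8 and 21 FPKM under DMSO and 68.1 and 81.6 at 24 h (1.89 ± 0.18, limma adjusted p = 0.000844). The gene of this list that fell was NDRG1, with 21.2 and 15.9 FPKM under DMSO and 4.2 and 4.24 at 24 h, which is also known as a gene induced by low oxygen.

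Histone genes whose messages carry a poly(A) tail were another group with rises, 6 of 18 tested, with 1 fall and a median of 1.09. With the block 11 rose and 4 fell. HIST1H4H and HIST1H2AC rose by 3.35 ± 0.21 and 2.90 ± 0.34. HIST2H2BE had 1.6 and 1.35 FPKM under DMSO and 19.8 and 17.9 at 24 h, with the groups far apart (limma adjusted p = 0.00019). These genes have near-identical copies, and how reads were split among copies is not stated, so their values are uncertain. H2AFZ, which encodes the variant H2A.Z, fell from 649.3 and 743.0 to 182.1 and 210.3 FPKM, by 1.82 ± 0.14 on the log2 scale.

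Metabolic and growth genes fell in smaller steps. Of 40 tested genes of ribosome biogenesis 10 fell, with a median of -0.76, and 38 fell with the block. Without 1 library 1 to 3 fell, the fewest without the first 24 h library. LYAR, DKC1, NOP16 and RRP9 had the largest falls, between -1.47 and -1.32. RRP9 lost the call whichever library was left out, LYAR and NOP16 lost it in most such fits, and DKC1 in some. In the ATF4 and amino acid list 13 of 27 fell and 2 rose, with a median of -1.06, and 16 fell and 7 rose with the block. Without 1 library 7 to 9 fell, the fewest without either 24 h library, and 0 rose. SLC1A5, a glutamine transporter, had 174.3 and 140.6 FPKM under DMSO and 28.2 and 23.2 at 24 h (-2.57 ± 0.19, limma adjusted p = 0.000343). PHGDH, the entry enzyme of serine synthesis, had 132.2 and 120.7 FPKM under DMSO and 27.3 and 23 at 24 h (-2.29 ± 0.17, limma adjusted p = 0.00036), and CBS, an enzyme of cysteine synthesis, fell by 2.55 ± 0.28. These carry out transport and synthesis of amino acids. The 2 rises, DDIT4 and DDIT3, are stress genes, at 0.95 ± 0.16 and 0.88 ± 0.16, and lost the call without any 1 library.

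Sugar and sterol genes followed the same direction. Among 32 tested genes of glycolysis and low oxygen 9 fell, 23 with the block, with a median of -0.56. HK2, a hexokinase, fell from 17.7 and 17.2 to 3.09 and 3.32 FPKM (limma adjusted p = 0.000342), and PFKFB4, which sets the level of an activator of glycolysis, fell by 2.00 ± 0.19. Without 1 library 3 to 7 of the list fell, the fewest without the second 24 h library. Of 32 tested genes of cholesterol and fatty acid synthesis 8 fell, 26 with the block, with a median of -0.80, and 4 to 8 fell without 1 library, the fewest without either 24 h library. INSIG1, which holds the SREBP factors of sterol synthesis in the endoplasmic reticulum, had 14 and 18.9 FPKM under DMSO and 3.94 and 4.65 at 24 h (-1.71 ± 0.23, limma adjusted p = 0.00268), and its adjusted p reached 0.0158 without the first 24 h library.

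Mitochondrial genes did not share this direction. Of 42 tested genes of the PGC1 axis, the TCA cycle and oxidative phosphorylation 1 rose and 2 fell, with a median of 0.04. The shares of all genes were 6.23% and 8.01%. With the block 13 rose and 11 fell, shares close to the 31.0% and 28.2% of all genes. PPARGC1A, the coactivator of mitochondrial biogenesis and a known target of MITF, was the gene that rose, with 5.98 and 8.15 FPKM under DMSO and 26 and 34.6 at 24 h (1.96 ± 0.23, limma adjusted p = 0.00166). Its relative PPARGC1B fell by 0.77 ± 0.14 and lost the call whichever library was left out. Of 32 tested lysosome and autophagy genes 4 rose and 1 fell, with a median of 0.36, and 20 rose with the block. ASAH1, the acid ceramidase, had 46.8 and 61.7 FPKM under DMSO and 165.8 and 191.2 at 24 h and rose by 1.71 ± 0.20, with an adjusted p of up to 0.0111 without 1 library. Without 1 library 0 to 2 of the lysosome genes rose, the fewest without the second 24 h library.

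Pigment cell genes rose. Of 22 genes 16 could be tested, 8 rose and 12 rose with the block, with a median of 0.90. Without 1 library 6 or 7 rose. DCT, the melanin enzyme dopachrome tautomerase, had 251.9 and 282.6 FPKM under DMSO and 2788 and 3041 at 24 h. EDNRB, the endothelin receptor of pigment cells, had 7.46 and 9.65 FPKM under DMSO and 164.2 and 193.4 at 24 h, and TRPM1, a channel used as a melanocyte marker, had 0.0758 and 0.306 FPKM under DMSO and 10.7 and 10.0 at 24 h. In each the 24 h libraries were many times higher, with changes of 3.44 ± 0.11, 4.24 ± 0.20 and 3.26 ± 0.20 (limma adjusted p = 6.16e-05, 0.000181 and 0.000219). GPNMB, a glycoprotein of melanosomes, rose from 215.2 and 255.9 to 1086 and 1296 FPKM (2.33 ± 0.16, limma adjusted p = 0.000277). TYRP1, an enzyme next to DCT in the pathway, rose from 2.04 and 3.48 to 12.1 and 16.4 FPKM (2.03 ± 0.26), and is named after its values were seen. The summed FPKM of the list went from 1059 and 1165 to 5025 and 5610, and DCT alone contributed 2788 and 3041 of the sum at 24 h.

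MITF did not pass without the block. It stood at 56.2 and 79.2 FPKM under DMSO and 93 and 124.7 at 24 h, so that both 24 h libraries lay above both DMSO libraries while replicate 2 exceeded replicate 1 in both groups. The change was 0.68 ± 0.25, with an adjusted p of 0.0835 without the block and 1.25e-05 with it. TYR, the first enzyme of melanin synthesis, was barely expressed, with 0.385 and 0.69 FPKM under DMSO and 1.21 and 1.15 at 24 h and adjusted p-values of 0.0432 and 0.0167. SOX10, the factor upstream of MITF, had 227.0 and 159.7 FPKM under DMSO and 346.4 and 256.9 at 24 h, a change of 0.65 ± 0.25, and adjusted p-values of 0.101 without and 8.68e-06 with the block. For SOX10 replicate 1 was the higher library in both groups. MITF and SOX10 are 2 of the 6 named genes whose call was gained with the block.

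CATGTG, a recognition letter set of MITF, was searched on both strands in the promoters of the 6 pigment cell genes that rose and had a promoter entry. It was in 4 of them, against 6.40% of the tested genes and 11.1% of all promoters. The same letters were in 2 of the 6 promoters found for ERK output genes that fell. With so few promoters this is a description only. The 120 bases before the start of 3 of the pigment cell genes are shown because they hold these letters. On the printed strand these read CACATG and are in capitals. The 120 bases lie at chr15:31161161-31161280 on the minus strand for TRPM1, and on the plus strand at chr9:12693265-12693384 for TYRP1 and chr7:23246655-23246774 for GPNMB.
TRPM1: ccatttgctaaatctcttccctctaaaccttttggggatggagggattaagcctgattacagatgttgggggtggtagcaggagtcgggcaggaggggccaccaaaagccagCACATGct
TYRP1: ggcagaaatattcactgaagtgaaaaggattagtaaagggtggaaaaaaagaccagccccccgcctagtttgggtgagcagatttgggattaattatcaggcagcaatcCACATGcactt
GPNMB: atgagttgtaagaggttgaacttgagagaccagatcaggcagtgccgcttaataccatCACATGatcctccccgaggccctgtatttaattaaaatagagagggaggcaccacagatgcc
The letters begin 8, 11 and 62 bases before the start in TRPM1, TYRP1 and GPNMB. Among the 6 ERK output genes with a promoter entry, the AP-1 letters TGACTCA or TGAGTCA were in none, against 2.80% of the tested genes, and the other 6 of the 12 that fell have no entry.

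Neural crest factors moved in both directions, with 7 rises and 3 falls among 18 tested and a median of 0.68. With the block 10 rose and 6 fell, and without 1 library 5 to 8 rose and 2 or 3 fell. TFAP2A, a crest and melanocyte factor, had 8.06 and 8.67 FPKM under DMSO and 74.7 and 74.7 at 24 h (3.02 ± 0.16, limma adjusted p = 0.00019). SOX4 had 12.7 and 10.2 FPKM under DMSO and 102.6 and 86.3 at 24 h and SNAI2, which maintains melanocyte precursors, had 2.25 and 2.44 FPKM under DMSO and 29.8 and 36.7 at 24 h. All 3 rose with no overlap of the groups, with SOX4 at 2.94 ± 0.17 and SNAI2 at 3.35 ± 0.19. ID2, which blocks basic helix-loop-helix factors, rose by 2.18 ± 0.20. The falls were those of SOX11 at -1.63 ± 0.14, LEF1 at -1.69 ± 0.15 and TWIST1 at -1.55 ± 0.27, the last with an adjusted p of up to 0.0324 without 1 library. NGFR, the p75 neurotrophin receptor of crest cells, had 2.89 and 2.82 FPKM under DMSO and 1.96 and 1.36 at 24 h. Its change was -0.54 ± 0.20, with an adjusted p of 0.0822 without the block and 0.0017 with it.

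Genes of Schwann cells, other glia and neurons rose more often than they fell. Of 23 tested 9 rose and 2 fell, with a median of 0.89, and 13 rose and 4 fell with the block. The study named S100B, L1CAM, CNTN6, MAP2, FYN and NCAM1 from these libraries, so the list is not independent evidence of its direction. MBP, a myelin protein, had 0.639 and 0.511 FPKM under DMSO and 14 and 13.8 at 24 h (3.24 ± 0.15, limma adjusted p = 0.000181), and no 24 h library came near a DMSO library. TUBA1A, an alpha tubulin of young neurons, rose from 30.5 and 34.1 to 198.3 and 221.8 FPKM (2.66 ± 0.14, limma adjusted p = 0.00019). S100B had 113.1 and 112.9 FPKM under DMSO and 444.3 and 468.0 at 24 h (2.00 ± 0.11, limma adjusted p = 0.000204), and L1CAM, a neural adhesion molecule, had 31 and 24.8 FPKM under DMSO and 92.7 and 81.3 at 24 h (1.61 ± 0.18, limma adjusted p = 0.00147). The 2 falls were NES, an intermediate filament of precursors, at -0.73 ± 0.13, and NEFL, a neurofilament, at -1.16 ± 0.15. NES lost the call whichever library was left out, and NEFL lost it in most such fits. Without 1 library 7 or 8 genes of the list rose.

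**Figure D5:**
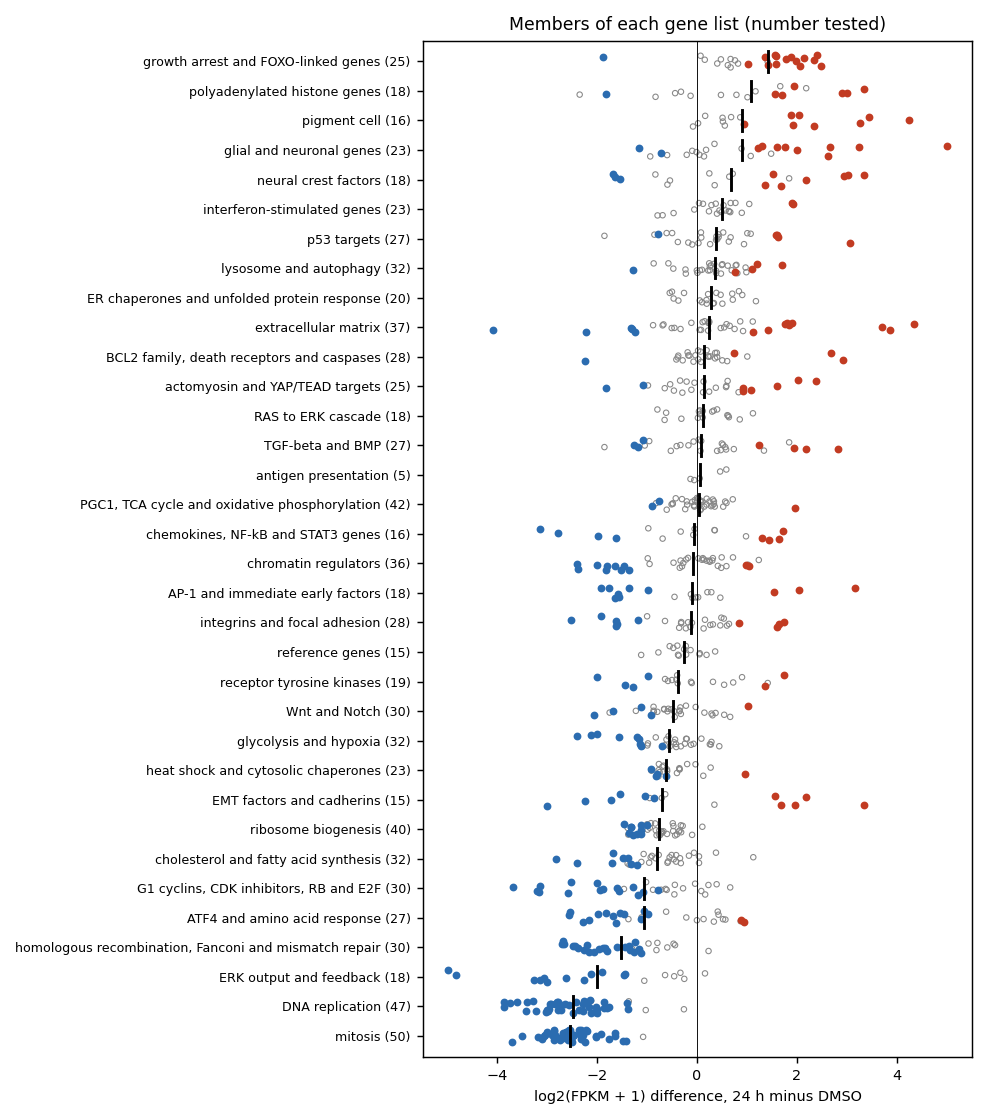
Each point is a tested member of a gene list on the x axis of log2(FPKM + 1) difference, 24 h minus DMSO, with filled red points for rises and filled blue points for falls past the threshold and open points for the rest. Black bars are list medians, and they run from -2.54 for mitosis to 1.42 for growth arrest genes.

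Factors and adhesion molecules of the epithelial to mesenchymal transition did not move as 1 group. Of 15 tested 5 rose and 6 fell, and 5 rose and 9 fell with the block. Without 1 library 4 or 5 rose and 3 or 4 fell, the fewest falls without the second DMSO or the second 24 h library. SNAI1 fell where SNAI2 rose. SNAI1 had 23.5 and 19.2 FPKM under DMSO and 3.61 and 3.84 at 24 h (-2.24 ± 0.17, limma adjusted p = 0.000423). ZEB2, the ZEB factor of melanocytes, rose by 1.96 ± 0.22, and TWIST1 fell. CDH2, or N-cadherin, had 73 and 86.9 FPKM under DMSO and 22 and 25 at 24 h and fell by 1.72 ± 0.18. CD44, the hyaluronan receptor, rose from 6.59 and 8.25 to 34 and 40.1 FPKM, by 2.18 ± 0.20.

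In the extracellular matrix list 9 of 37 tested genes rose and 5 fell, with a median of 0.24, and 19 rose and 10 fell with the block. The study marked some matrix genes, among them THBS1, from these libraries, so this list is not independent evidence of its direction either. The thrombospondins went opposite ways. THBS1 had 1.18 and 1.31 FPKM under DMSO and 45.2 and 44.2 at 24 h and THBS2 had 725.0 and 723.5 FPKM under DMSO and 44 and 39.7 at 24 h. No library of 1 group came near the other group in either gene, with changes of 4.35 ± 0.14 for THBS1 and -4.08 ± 0.13 for THBS2 (limma adjusted p = 6.16e-05 and 6.16e-05). MGP, a matrix protein that limits calcification, rose from 0.0752 and 0.202 to 14.5 and 16.6 FPKM, and MATN2, a matrilin, from 0.436 and 0.601 to 18.8 and 18.9 FPKM. SPARC, a collagen-binding glycoprotein, had 132.3 and 162.1 FPKM under DMSO and 501.6 and 598.3 at 24 h (1.90 ± 0.18, limma adjusted p = 0.000773), and TNC, or tenascin-C, had 256.4 and 247.3 FPKM under DMSO and 53.4 and 52.4 at 24 h (-2.23 ± 0.13, limma adjusted p = 0.000206). FN1, or fibronectin, had 37 and 38 FPKM under DMSO and 44 and 45.2 at 24 h, a change of 0.24 ± 0.13 with an adjusted p of 0.21 without and 0.00398 with the block. Without 1 library 8 or 9 matrix genes rose and 2 or 3 fell.

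Of 28 tested integrin and focal adhesion genes 4 rose and 6 fell, against 6.23% and 8.01% of all genes. With the block 9 rose and 11 fell, against 31.0% and 28.2% of all genes. ITGB3, the beta-3 integrin of invasive melanoma, had 167.4 and 180.9 FPKM under DMSO and 29.1 and 29.5 at 24 h (-2.53 ± 0.14, limma adjusted p = 0.000196). ITGA10 fell by 1.92 ± 0.15 and ITGA9 by 1.63 ± 0.15, whereas ITGA4 rose by 1.61 ± 0.20 and ITGA1 by 1.63 ± 0.22, with adjusted p-values of up to 0.0139 and 0.0175 without 1 library. The subunits therefore split, with no common direction. Without 1 library at a time 0 to 3 rose and 3 to 6 fell, the fewest without the second 24 h library. Among 25 tested actomyosin genes and YAP and TEAD targets 6 rose and 2 fell, and 12 rose and 8 fell with the block. CYR61, a matricellular YAP target, rose from 2.52 and 2.23 to 16.2 and 16.8 FPKM and MYL9, a myosin light chain, from 5.1 and 3.47 to 23 and 17.7 FPKM, while ACTN1, an alpha-actinin, fell by 1.82 ± 0.21. AMOTL2, another YAP target, rose by 1.61 ± 0.15. ANKRD1, also a YAP target, was near the floor and fell from 1.35 and 1.95 to 0.231 and 0.242 FPKM, by 1.09 ± 0.19. ANKRD1 lost its call whichever library was left out, and ACTN1 lost its call without the second 24 h library. Without 1 library 3 or 4 genes of the actomyosin and YAP list rose and 0 or 1 fell, the fewest falls without the second 24 h library.

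Receptor tyrosine kinases were mostly under the minimum, with 19 of 48 tested. Of these 2 rose and 4 fell, and 6 rose and 9 fell with the block. Without 1 library 1 or 2 rose and 0 or 1 fell, the fewest falls without the first DMSO or the second 24 h library. ERBB3, the receptor that pairs with ERBB2 for neuregulin, had 42.6 and 45.5 FPKM under DMSO and 108.6 and 120.1 at 24 h (1.36 ± 0.14, limma adjusted p = 0.000971). MET, the hepatocyte growth factor receptor, rose from 2.16 and 2.59 to 8.68 and 12.2 FPKM, with an adjusted p of up to 0.0137 without 1 library. FGFR4, EPHA2, FLT1 and FGFR1 fell, with changes between -2.00 and -0.98. EPHA2, FLT1 and FGFR1 lost the call whichever library was left out, and FGFR4 lost it without some library. EGFR was near the minimum, with 1.17 and 1.4 FPKM under DMSO and 0.627 and 0.428 at 24 h and adjusted p-values of 0.0457 without and 0.0121 with the block. AXL had 7.22 and 7.25 FPKM under DMSO and 4.41 and 4.16 at 24 h, a change of -0.64 ± 0.15, with 0.0215 and 0.000333. PDGFRB had 1.02 and 0.86 FPKM under DMSO and 0.44 and 0.311 at 24 h and was not tested, as neither group mean reached 1 FPKM.

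Of the TGF-beta and BMP genes 4 of 27 rose and 3 fell, against 6.23% and 8.01% of all genes. TGFBR2, the type II receptor, had 6.6 and 7.6 FPKM under DMSO and 52.4 and 61 at 24 h (2.83 ± 0.17, limma adjusted p = 0.000219), and TGFB2, a ligand, rose from 1.07 and 1.33 to 7.13 and 7.7 FPKM. Receptor and ligand both rose. With the block 13 genes of this list rose and 7 fell. Without 1 library 3 or 4 rose and 0 to 3 fell, the fewest falls without the first 24 h library. In the Wnt and Notch list 4 of 30 fell and 1 rose, against 8.01% and 6.23% of all genes. With the block 18 of the list fell, against 28.2% of all genes. Whichever library was left out, 2 of the list fell and 0 rose. HEY1, a Notch target, had 14.5 and 17.9 FPKM under DMSO and 2.88 and 3.28 at 24 h (-2.07 ± 0.18, limma adjusted p = 0.000586).

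Of 28 tested BCL2 family, death receptor and caspase genes 3 rose and 1 fell, with a median of 0.14, and 11 rose and 5 fell with the block. The 14.3% of the list that passed is close to the share of all genes, where 6.23% rose and 8.01% fell. BCL2L11, which encodes the killer protein BIM, had 3.39 and 6.09 FPKM under DMSO and 37.1 and 45.9 at 24 h. BMF, another BH3-only protein, had 4.65 and 3.89 FPKM under DMSO and 29.8 and 35.8 at 24 h. Both rose with no overlap, by 2.92 ± 0.27 and 2.68 ± 0.18 (limma adjusted p = 0.000786 and 0.000267). PMAIP1, which encodes the BH3-only protein NOXA, went the other way, with 13 and 19.2 FPKM under DMSO and 2.12 and 3.02 at 24 h (-2.25 ± 0.25, limma adjusted p = 0.00149). MCL1, the survival protein NOXA binds, had 47.4 and 63.4 FPKM under DMSO and 57.7 and 72.4 at 24 h. Its groups overlapped, replicate 2 was the higher library in both, and its adjusted p was 0.462 without the block and 0.00479 with it. BCL2L1, which encodes the survival protein BCL-XL, rose by 0.74 ± 0.14 and lost the call whichever library was left out.

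Of 27 tested p53 targets 4 rose and 1 fell, with a median of 0.39, and 15 rose and 7 fell with the block. Without 1 library 3 or 4 rose and 0 fell. TP53INP1, which promotes death and autophagy, had 1.39 and 1.87 FPKM under DMSO and 17.7 and 24.9 at 24 h (3.07 ± 0.25, limma adjusted p = 0.0005). CDKN1A, the best known target, did not pass, as given above. GDF15, a secreted target, had 2786 and 1429 FPKM under DMSO and 840.3 and 360.9 at 24 h, with a wide spread between replicates in both groups and adjusted p-values of 0.0379 without and 3.1e-07 with the block. It is named after its values were seen.

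Immune and inflammatory genes held rises and falls. The median of 23 tested interferon-stimulated genes was 0.49, and 13 rose with the block, against 31.0% of all genes. Without the block 2 rose, or 8.7% of the list, close to the 6.23% of all genes. These were STAT2 and IRF9, subunits of the complex that turns interferon genes on, with 5.83 and 6.68 FPKM under DMSO and 24.4 and 27.8 at 24 h for STAT2 and 5.77 and 4.79 FPKM under DMSO and 22.6 and 23.1 at 24 h for IRF9. The changes were 1.90 ± 0.18 and 1.93 ± 0.16 (limma adjusted p = 0.000779 and 0.000555). In the list of chemokine, NF-kB and STAT3 genes 4 of 16 rose and 4 fell. LIF, a cytokine, had 66.5 and 56 FPKM under DMSO and 8.61 and 7.43 at 24 h and TNFAIP3, a brake on NF-kB, had 23.8 and 25.9 FPKM under DMSO and 2.11 and 1.72 at 24 h. Both fell, by 2.79 ± 0.17 and 3.15 ± 0.16, and IL8 and IL24 fell as well. STAT3, the factor downstream of cytokines such as LIF, rose from 32.4 and 35.3 to 88.8 and 97.3 FPKM (1.43 ± 0.14, limma adjusted p = 0.000896), and SERPINA3, an acute phase gene, from 80.2 and 87.6 to 277.9 and 279.6 FPKM (1.72 ± 0.13, limma adjusted p = 0.000418). With the block 6 rose and 7 fell.

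Antigen presentation could be read in 5 of 25 genes only, of which 0 passed in limma, 1 was higher at an unadjusted p under 0.05 and 2 rose with the block. Of 143 genes placed between positions 29690552 and 33057473 of chromosome 6 (GRCh37), where the HLA genes lie, 137 are listed at 0 in all 4 libraries. These include genes that every cell uses, so nothing can be read from the zeros.

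Of 23 tested heat shock and cytosolic chaperones 4 fell and 1 rose, 18 fell and 2 rose with the block, and the median was -0.61. Whichever library was left out, 0 of them passed. HSPA8, the constitutive HSP70, had 975.9 and 1144 FPKM under DMSO and 562.0 and 649.9 at 24 h and fell by 0.80 ± 0.14, with an adjusted p of up to 0.0459 without 1 library. Of 20 tested chaperones of the endoplasmic reticulum 0 passed, with 6 higher and 2 lower at an unadjusted limma p under 0.05, 9 rises and 5 falls with the block, and a median of 0.27. Of 15 common reference genes 0 passed, 5 were lower at an unadjusted limma p under 0.05, and 1 rose and 9 fell with the block. Their median of -0.26 lies below the 0.06 of all genes.

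Outside the lists, the largest fall was that of EDN3, or endothelin-3, a growth factor of pigment cells and the ligand of EDNRB. It had 137.7 and 139.2 FPKM under DMSO and 1.95 and 1.22 at 24 h (-5.77 ± 0.19, limma adjusted p = 6.16e-05). Ligand and receptor thus moved in opposite directions, with EDN3 high under DMSO and EDNRB high in drug. UCN2, a peptide of the corticotropin-releasing family, had 159.1 and 135.9 FPKM under DMSO and 8.98 and 7.34 at 24 h and fell by 4.02 ± 0.19. PHLDA2 fell by 4.91 ± 0.47 and TMEM158, a gene induced by RAS, fell by 4.21 ± 0.38, and both had a wide spread between the DMSO libraries, with 277.0 and 166.8 FPKM for PHLDA2 and 69.2 and 35.8 FPKM for TMEM158. SLC27A3, a fatty acid transport protein, fell from 81.1 and 58.1 to 3.39 and 3.29 FPKM. Among the rises, NOV, a matricellular protein, had 3.07 and 4.52 FPKM under DMSO and 78 and 91.5 at 24 h (4.17 ± 0.22, limma adjusted p = 0.00019), and NAV2, a neuron navigator, rose from 0.987 and 1.11 to 20.8 and 22.1 FPKM. LOC100130275 and MGC16121, which are uncharacterised loci, rose by 3.90 ± 0.26 and 3.56 ± 0.19. RNU11, a spliceosomal RNA, is listed at 11.6 and 14.8 FPKM at 24 h and at 0 in both DMSO and both 48 h libraries. No fold is given for it.

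The 48 h libraries show which of these changes differed later, in a contrast of 48 h minus 24 h. The DMSO libraries do not enter its differences, but they do enter the estimate of the spread. This contrast shares the 24 h libraries with the comparison above, so the contrasts are not independent of each other. Between 24 and 48 h 252 genes rose, or 2.06%, and 66 fell, or 0.54%. With the block 1752 rose and 2240 fell. The counts rested on the 24 h libraries, with 24 rises and 4 falls without the first and 24 rises and 5 falls without the second. Of the 47 replication genes 36 rose between 24 and 48 h, and of the 50 mitosis genes 34 did. MCM5 was at 105.5 and 84.2 FPKM at 48 h, a rise of 3.11 ± 0.27 over 24 h (limma adjusted p = 0.00224), and E2F1 at 26.3 and 22.5 FPKM. Both were still below their DMSO libraries. CCND1 rose by 1.38 ± 0.13 between the times (limma adjusted p = 0.00295), and it was the 1 gene of the 18 in the ERK output list to do so.

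Other genes went on in the same direction or turned. NGFR, which was not higher at 24 h, reached 49.9 and 39.8 FPKM at 48 h, 4.11 ± 0.20 over 24 h (limma adjusted p = 0.000794). THBS1 rose by a further 2.24 ± 0.14 and S100B by 1.16 ± 0.11 (limma adjusted p = 0.00129 and 0.00314), and 11 of the 37 matrix genes and 6 of the 23 glial and neuronal genes rose from 24 to 48 h. PPARGC1A went back to 5.94 and 7.34 FPKM, a difference of -2.03 ± 0.23 (limma adjusted p = 0.00468), and NAV2 and SERPINA3 dropped by 1.75 and 3.66. At 48 h NAV2, with 5.95 and 5.43 FPKM, was still above its DMSO libraries, while SERPINA3, with 20.6 and 21.8, was below them. Of the 761 genes that had risen at 24 h, 32 rose and 23 fell between the times, and of the 978 that had fallen, 171 rose and 8 fell.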

How the data were processed

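RNA was isolated from COLO858 cells and sequenced by the authors from stranded mRNA libraries, as 50-base single reads. Per the labels, TopHat aligned these to hg19, and the authors deposited gene values from Cuffdiff, which are FPKM. Versions, gene annotation, strand setting and library scaling are not given in the sources used here. FPKM holds no counts, and the low values showed no common step from which whole reads could be recovered, so depth and the precision it gives are unknown. All 6 columns of the COLO858 table were used, and 0 were left out. The other cell line was not analysed here.

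A linear model of 3 groups was fitted to log2(FPKM + 1) of the 6 libraries with limma 3.58.1 in R 4.3.3, with empirical Bayes moderation and a mean-variance trend. Genes with a mean of at least 1 FPKM under DMSO or at 24 h were tested, small RNA genes left out. Two-sided p-values were adjusted with the Benjamini-Hochberg method at a threshold of 0.01, after the study's q threshold. The second fit added the replicate number as a block. With only 2 numbers, the correlation of same-numbered deviations (0.762 to 0.791) does not establish a pairing of samples. The procedure was also run on simulated data with independent noise in each library. The shared replicate pattern was not simulated, so that run does not show how the calls behave under it.

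Genes were named by rule: the 10 largest rises and falls, up to 4 rises and 4 falls in each of 34 gene lists, and a fixed set of pathway and lineage genes. Some genes this rule names are not reported here. The genes, lists and tests were chosen with earlier results of these data known. Lists are described by counts and medians, with no test of a list. Symbols of 86.7% of the genes tested were placed on GRCh37 with GENCODE v44. Promoters are from RefSeq and matched by symbol, or by an older name on the same chromosome, with no test. Alternatives were other amounts added before the log, other minimums, small RNA genes kept, median-ratio rescaling, the 4 libraries alone, no trend, other thresholds, and each DMSO or 24 h library left out.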

Additional observations from a re-analysis of the deposited data

Results flagged for a closer look

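With 2 libraries per group, no search for outlying libraries could be made. Among the genes named by rule, and with RNU11 left out, 36 differed between the drug times, with 32 higher and 4 lower at 48 h. These passed a Benjamini-Hochberg adjusted p under 0.01 in the limma contrast of 48 h minus 24 h. RNU11 also passed, at -3.82, and is listed at 0 in all but the 24 h libraries. Values are differences of log2(FPKM + 1), 48 h minus 24 h, with 2 libraries per time. Without the first 24 h library 10 of the 36 still passed, and 10 without the second. The 9 that passed without any 1 DMSO or 24 h library were CDC45, CDC6, CRYAB, E2F1, GINS2, MATN2, NGFR, SERPINA3 and UBE2C.

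Most of the 32 are cell cycle genes that had fallen at 24 h. At the origin of replication the difference was 3.20 for CDC6, 3.19 for CDC45, 3.11 for MCM5, 2.92 for GINS2 and 2.24 for MCM2. In G1 control it was 2.99 for E2F1, 2.10 for CDC25A and 1.38 for CCND1. In mitosis it was 2.69 for UBE2C, 2.54 for AURKB, 2.25 for KIF2C, 1.97 for PLK1 and 1.79 for MKI67. In repair and chromatin it was 2.19 for FANCI, 2.07 for RAD54L, 2.06 for HMGB2, 2.04 for EXO1, 1.89 for HELLS and 1.89 for BLM.

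Some genes of the matrix, adhesion, YAP and epithelial to mesenchymal transition lists that had risen at 24 h were higher again at 48 h. The difference was 2.79 for MATN2, 2.24 for THBS1, 1.81 for MGP, 1.67 for SPARC, 1.90 for CAV1, 1.76 for CYR61, 1.07 for AMOTL2 and 2.54 for CLDN1. Among crest, glial and neuronal genes it was 4.11 for NGFR, 1.75 for NES, 1.17 for TUBA1A and 1.16 for S100B. NGFR and NES were not higher at 24 h than under DMSO. CRYAB, a small heat shock protein, had the largest difference, 4.61. Apart from RNU11, the genes that were lower at 48 h than at 24 h were SERPINA3 at -3.66, PPARGC1A at -2.03, NAV2 at -1.75 and UCN2 at -1.68. Of these the first 3 had risen at 24 h and UCN2 had fallen.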

How the results depend on the processing

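Depth limits the low genes most, and FPKM does not show by how much. No gene called at 24 h changed sign under any fit that also called it, but the counts depended on how the spread of 2 libraries was estimated. With the replicate block 3781 genes rose and 3439 fell, and at an adjusted p under 0.05 these were 1802 and 1896. A minimum of 10 FPKM gave 423 and 609. Leaving out each library in turn gave 242 to 363 rises and 456 to 631 falls, with the lone library assumed to vary like the other groups, and 39.9 to 53.7% of the 1739 calls were shared. The other alternatives stayed within 1.5 times of the main counts. For 48 h against 24 h, the block gave 1752 rises and 2240 falls, which leaves fewer rises than falls. An adjusted p under 0.05 gave 592 and 317. No minimum gave 131 and 26, a minimum of 10 FPKM 159 and 38, and keeping small RNA genes 142 and 27. Leaving out a library gave 24 to 255 rises and 4 to 52 falls, and the low ends were those without a 24 h library. The median change of the AP-1 and immediate early list was -0.50 to 0.026 with a library left out, above 0 without the second 24 h library. Rescaling moved the median of all genes from 0.06 to 0.01. The cause of these shifts was not tested, apart from the smaller number of genes or libraries in some fits. The numbers 1 and 2 are shared by the groups, and with 2 of them the block cannot be shown to pair samples. It added 6 calls among the named genes and lost none.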

Other observations

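Gene families were looked at whole by symbol, after values were seen, and are given with no test of a family. Some of the centromere proteins and kinesins below are also in the mitosis list and were already counted there. The regulators of G protein signalling, which switch off heterotrimeric G proteins, had 12 of 21 members tested. Of these 4 fell and 1 rose, and 6 fell and 2 rose with the block. RGS2 had 41.4 and 57.0 FPKM under DMSO and 4.94 and 4.94 at 24 h (-3.06 ± 0.22, limma adjusted p = 0.000353). RGS5 fell by 2.63 ± 0.28 and RGS17 by 2.17 ± 0.22. RGS1 had 3.89 and 5.15 FPKM under DMSO and is listed at 0 in both 24 h libraries. RGS3 was the member that rose, by 0.80 ± 0.14.

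All 6 tested subunits of the condensin complexes, which compact chromosomes for mitosis, fell, with a median of -2.13. NCAPG went from a mean of 24.9 ± 7.09 to 2.30 ± 0.715 FPKM (SD, n = 2), and NCAPD2 from 84.2 ± 2.64 to 26.3 ± 1.15. Of 18 centromere proteins with the CENP symbol 13 fell, and with the block 16 fell and 1 rose. Of 28 tested kinesins 12 fell and 1 rose, and 15 fell and 5 rose with the block. The arrestin domain genes split, as ARRDC3 rose by 1.85 ± 0.28 and ARRDC4 by 1.65 ± 0.23 while ARRDC2 fell by 1.05 ± 0.20 on the log2 scale. Of 29 tested HOX genes 1 rose and 2 fell, shares no higher than the 6.23% and 8.01% of all genes, and 8 rose and 5 fell with the block. The largest change was that of HOXB9, with 27.8 ± 1.06 FPKM under DMSO and 3.66 ± 0.0259 at 24 h (SD, n = 2). Of 7 tested MTRNR2L genes 6 rose, with a median of 1.74. These are near-identical copies of a mitochondrial sequence that share reads, so their rises are uncertain and do not count as 6 separate observations.

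Several other genes with large changes are named here after their values were seen. TGFA, a ligand of EGFR, had 45.6 and 56.3 FPKM under DMSO and 3.62 and 5.32 at 24 h (-3.26 ± 0.22, limma adjusted p = 0.000279). NPR1, a receptor for natriuretic peptides, fell by 3.81 ± 0.21 and IGFBP3, which binds insulin-like growth factors, by 2.57 ± 0.18. FBXO32 and TRIM63, ubiquitin ligases known as FOXO targets in muscle, rose by 2.10 ± 0.21 and 2.30 ± 0.18. CITED1, a MITF-linked regulator in melanocytes, had 28.4 and 27.0 FPKM under DMSO and 172.5 and 180.7 at 24 h. PCNA-AS1 overlaps PCNA on the other strand, and both fell, by 2.36 ± 0.16 and 2.42 ± 0.20. As the strand setting of the counting is not stated, their reads cannot be told apart.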
